A study of Mus musculus with 8 samples.

Results

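The genes described here are 8 brakes on the entry of a cell into S phase. They are the CDK inhibitors of the CIP/KIP family (Cdkn1a, Cdkn1b and Cdkn1c), 2 of the INK4 family (Cdkn2c and Cdkn2d), and the retinoblastoma pocket proteins (Rb1, Rbl1 and Rbl2). They were taken by symbol from the deposited expression table, which held all 8 among its 19909 genes. Other genes of the INK4 family are not among the 8 and are not described. RNA was sequenced from hematopoietic stem cells (HSCs), the bone marrow cells that maintain all blood lineages, sorted at steady state from Gfplc3/Gfplc3 mice. In these mice the autophagosome protein LC3 carries GFP, so that a cell in which autophagy degrades the fusion protein is dim. The young group was 2 libraries of unfractionated HSCs from mice of 8 to 12 weeks. The old groups came from mice of over 24 months: 3 libraries of the 33% of HSCs with the lowest GFP (AThi, autophagy high) and 3 of the 33% with the highest GFP (ATlo, autophagy low), taken as pairs. All 3 groups carried the same reporter genotype and none was treated. Each library was made from about 10000 cells, and cells were sorted over 2 days that the labels do not assign to samples. Young cells were not gated on GFP, so age and gate cannot be told apart in either comparison with young cells, and both of those comparisons share the 2 young libraries.

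A cyclin-dependent kinase drives a resting cell towards DNA replication once it is bound by a cyclin. INK4 proteins bind CDK4 and CDK6 and keep D-type cyclins away, while CIP/KIP proteins bind whole cyclin-CDK complexes, above all those of CDK2. The pocket proteins bind E2F transcription factors and hold S-phase genes silent until CDKs phosphorylate them, and Rbl1 (p107) and Rbl2 (p130) also assemble the DREAM repressor with the MuvB core. HSCs are mostly quiescent, and Cdkn1c (p57) and Cdkn1b (p27) are known for their part in that state in the mouse.

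The libraries held 33960216 to 61341946 reads assigned to genes, and the ATlo libraries were the deepest. A member was covered by 60 to 8198 reads in a library, with the fewest for Cdkn1a in young mice. All 12 HSC markers listed were present, with a summed normalized count of 144706 to 148448 in young, 144641 to 167470 in AThi cells and 106461 to 127850 in ATlo cells. Of the 12, 4 were called higher and none lower in AThi against ATlo, where 3.47% of all genes tested were higher. Against young, 2 were called higher and 1 lower in AThi, and 1 higher and 2 lower in ATlo. The sum of 10 markers of cycling cells was 52311 to 67224 in young, 35786 to 44599 in AThi cells and 92087 to 105709 in ATlo cells, so that the groups did not overlap. In bulk RNA, fewer cycling cells and less of these transcripts per cell cannot be told apart. The 3 libraries whose column tag ends in 12 stood apart in B cell markers, 5 of 10 of which were in the table: Ighm was at 8395 in the young, 20937 in the AThi and 7314 in the ATlo library with that tag, and at 25.3 to 63.5 in the other 5. Calls of the genes named here that were lost without these 3 libraries are therefore given with that value. That setting, and leaving out a young library, leaves 1 young library, which is then assumed to vary as the other groups do. Markers of other cell types also differed between young and old libraries. Of 8 megakaryocyte and platelet markers, 7 were in the table and summed to 3708 to 4144 in young and 9572 to 14030 in old libraries. Against young, 3 were called higher in AThi and 5 in ATlo, where 3.13% and 2.37% of all genes tested were higher. The 4 of 8 multipotent progenitor markers in the table summed to 5401 to 7052 in young and 2928 to 5194 in old libraries. Of these, 2 were called lower in AThi and 1 in ATlo against young, where 1.91% and 1.98% of all genes tested were lower. In the T and NK cell list, 1 of 4 markers in the table was called higher in each of the 3 comparisons. The stromal list, with 5 in the table, had 1 called higher in AThi against ATlo and 1 in AThi against young. The erythroid list, with 8 in the table, had 1 called higher in ATlo against young. The part of B cell, erythroid or macrophage RNA, of cycling cells or of these cell types in any result was not tested.

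The promoters of 4 members show where letters known from cell-cycle promoters lie in genes with different courses across the groups. Each is 300 bases from RefSeq (GRCm38.p6), 250 before the annotated start and 50 after it, on the strand of the gene. Capitals mark a match to an E2F core (TTCCCGC and its variants TTGGCGC as well as TTCGCGC, together with TTGCCGC) or to the CHR element (TTTGAA) on either strand. The Rbl1 window is chr2:157204485-157204784 (minus strand), the Cdkn2c window is chr4:109666707-109667006 (minus strand), the Rbl2 window is chr8:91069807-91070106 (plus strand) and the Cdkn1a window is chr17:29093519-29093818 (plus strand).
Rbl1: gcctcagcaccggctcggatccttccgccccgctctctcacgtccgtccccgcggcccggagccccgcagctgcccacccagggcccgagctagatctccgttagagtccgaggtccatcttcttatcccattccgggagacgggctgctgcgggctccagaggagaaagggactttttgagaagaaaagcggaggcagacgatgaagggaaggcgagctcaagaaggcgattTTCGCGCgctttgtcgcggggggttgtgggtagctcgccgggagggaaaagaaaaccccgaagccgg
Cdkn2c: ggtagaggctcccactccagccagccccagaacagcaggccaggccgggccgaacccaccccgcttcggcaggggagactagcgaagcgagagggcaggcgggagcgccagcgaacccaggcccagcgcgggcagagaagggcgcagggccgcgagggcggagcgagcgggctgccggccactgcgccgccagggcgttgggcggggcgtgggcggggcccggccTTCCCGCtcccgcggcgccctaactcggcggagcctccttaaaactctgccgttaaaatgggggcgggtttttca
Rbl2: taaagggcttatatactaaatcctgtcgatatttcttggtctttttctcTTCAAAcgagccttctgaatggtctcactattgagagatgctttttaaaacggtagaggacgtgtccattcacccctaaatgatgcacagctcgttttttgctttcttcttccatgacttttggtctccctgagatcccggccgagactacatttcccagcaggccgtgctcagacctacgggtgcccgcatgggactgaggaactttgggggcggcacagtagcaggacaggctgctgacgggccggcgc
Cdkn1a: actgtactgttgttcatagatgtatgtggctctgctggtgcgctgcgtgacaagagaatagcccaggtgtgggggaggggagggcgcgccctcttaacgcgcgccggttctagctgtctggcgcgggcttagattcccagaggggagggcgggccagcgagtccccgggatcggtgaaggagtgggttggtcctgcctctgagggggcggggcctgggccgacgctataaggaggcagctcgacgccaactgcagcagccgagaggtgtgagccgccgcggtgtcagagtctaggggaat
The Rbl1 promoter held TTCGCGC beginning 17 bases before the start, and the Cdkn2c promoter held TTCCCGC beginning 25 bases before it. Rbl2 held no E2F core and 1 CHR element on the opposite strand, 201 bases before the start. No match overlapped another. Over all 32851 promoter windows of this length, 9.57% held an E2F core and 17.9% a CHR element. E2F cores were in 16.0% of the windows of genes tested here, in 19.9% of windows with at least 60% G and C, and in 17 of 28 windows (60.7%) of the E2F target genes described further on. Of the 8 windows found for 6 members, the other 5, for Cdkn1a, Cdkn1b, Cdkn2c (a second start) and Cdkn2d, held neither motif. These are matches of letters, not measured binding.

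Across the 3 groups the brakes did not move as a block. The plot of all 8 members by library shows 3 courses: Cdkn1a, Cdkn2c and Rb1 had both old means above young, Rbl1 was lowest in AThi cells, and Cdkn1b, Cdkn1c and Rbl2 had their highest mean in AThi cells and their lowest in ATlo cells. Cdkn2d had the closest means. Levels are normalized counts, the reads divided by each library's size factor.

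**Figure D1:**
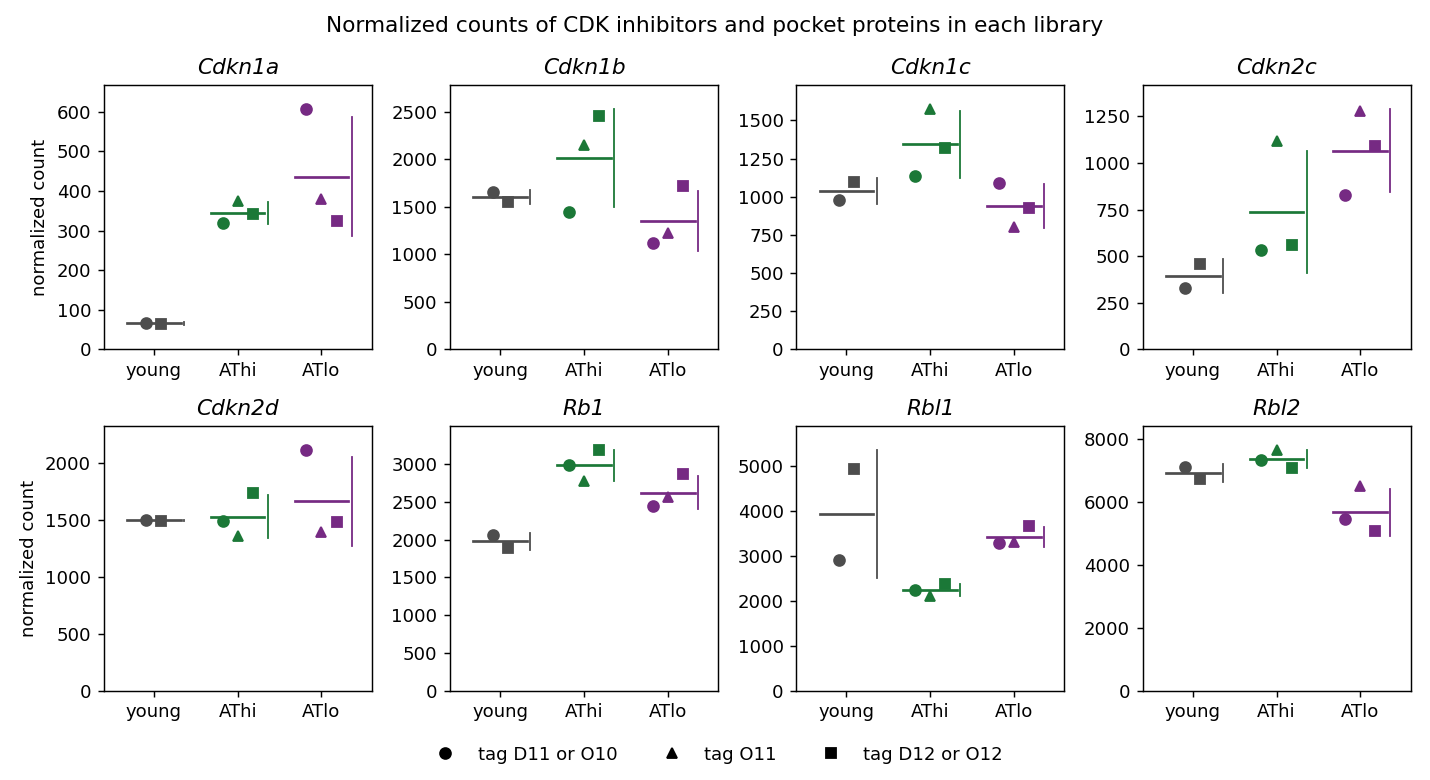
Normalized counts (vertical axes, each from 0) of the 8 members in the 2 young, 3 AThi and 3 ATlo libraries, with the group mean as a horizontal line and 1 SD as a vertical bar beside it. Equal marker shapes within the old groups are pairs, and the young libraries are paired with none. Cdkn1a sits at 63.4 and 67.5 in young libraries and from 319 to 607 in old ones, and the Rbl1 values of AThi lie below all others.

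Cdkn1a, which encodes p21, the CDK inhibitor best known as a target of DNA damage signalling, was low in young HSCs and higher in both old fractions. It was at 67.5 and 63.4 in the 2 young libraries, at 319, 375 and 341 in AThi (tags O10, O11 and O12, the order used throughout) and at 607, 379 and 323 in ATlo. Every old library lay above both young ones, and the old fractions overlapped. It rose in the authors' deposited table in AThi against young by a log2 fold change of 2.40 (SE 0.38, 95% interval 1.65 to 3.15, adjusted p = 4.5e-08) and in ATlo against young by 2.74 (SE 0.38, interval 1.99 to 3.48, adjusted p = 1.9e-10). These are folds of 5.28 and 6.67, and the young values rest on 65 and 60 reads. It was called in all 17 alternative settings in each comparison with young, at 2.33 to 2.45 and at 2.43 to 2.92. Between the old fractions the deposited log2 difference, AThi over ATlo, was -0.34 (SE 0.32, interval -0.97 to 0.29, adjusted p = 0.65). Within the pairs it was -0.93, -0.02 and 0.08, so that 1 pair of the 3 carried the difference.

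Cdkn1b, which encodes p27, was at 1653 and 1552 in young, 1449, 2146 and 2452 in AThi cells and 1117, 1225 and 1716 in ATlo cells. The AThi value was the higher one in all 3 pairs, by 0.38, 0.81 and 0.52 on the log2 scale, although the groups overlapped. The spread between libraries was wide in both fractions, with means of 2016 ± 514 (SD, n = 3) and 1353 ± 319 (SD, n = 3). In the authors' deposited table the AThi over ATlo log2 fold change was 0.58 (SE 0.24, interval 0.11 to 1.04, adjusted p = 0.12) and was not called. With the pair as a block DESeq2 gave 0.56 with an adjusted p of 0.017 and edgeR 0.55 with an adjusted p of 0.14. Leaving out 1 old library moved it from 0.41 (without AThi O12, DESeq2 adjusted p = 0.39) to 0.79 (without ATlo O12, DESeq2 adjusted p = 0.028). It was called in the latter and without AThi O10 (0.77, DESeq2 adjusted p = 0.017), and not without any 1 of the other old libraries. Neither old fraction was called against young, at 0.33 and -0.24 (adjusted p = 0.70 and 0.78 in the deposited tables).

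Cdkn1c, the imprinted gene of p57, was at 979 and 1098 in young, 1136, 1575 and 1320 in AThi cells and 1087, 803 and 926 in ATlo cells. All AThi values lay above all ATlo and all young values, the closest being 1136 against 1098 and 1087. The means were 1344 ± 220 (SD, n = 3) in AThi, 939 ± 142 (SD, n = 3) in ATlo and 1038 ± 84.6 (SD, n = 2) in young cells. The deposited log2 fold change of AThi over ATlo was 0.52 (SE 0.20, interval 0.12 to 0.91, adjusted p = 0.092 in the authors' deposited table), short of the threshold of 0.05. The paired differences were 0.06, 0.97 and 0.51, so the pair O10 barely differed. Against young it was 0.37 in AThi cells and -0.15 in ATlo (adjusted p = 0.50 and 0.88 in the deposited tables). None of the 8 tested neighbours of Cdkn1c in its imprinted region was called between the old fractions, against 2 at an unadjusted p below 0.05 with DESeq2 and 0 of 8 with edgeR. H19, the maternally expressed long RNA of the adjoining domain, was at 162 and 201 in young libraries and at 0 to 33.0 in the 6 old ones. It was called lower in ATlo against young (adjusted p = 6.2e-04 in the authors' deposited table; edgeR adjusted p = 0.15; DESeq2 adjusted p = 0.14 without the libraries tagged 12).

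Compared per kilobase of merged exons (GENCODE M21, GRCm38), Cdkn1c was the most abundant CIP/KIP transcript in each group mean and Cdkn1a the least. Cdkn1c was at 509 normalized counts per kilobase in young, 659 in AThi cells and 460 in ATlo cells, Cdkn1b at 352, 443 and 297, and Cdkn1a at 18.4, 97.2 and 123. Of the family's summed level per kilobase, Cdkn1a made up 2.10% ± 0.154 (SD, n = 2) in young, 8.21% ± 0.966 (SD, n = 3) in AThi cells and 13.9% ± 4.06 (SD, n = 3) in ATlo cells. The sum itself was 880 ± 25.1 (SD, n = 2), 1199 ± 205 (SD, n = 3) and 881 ± 96.8 (SD, n = 3) per kilobase. The 3 AThi sums, 965, 1349 and 1282, were all above the ATlo sums of 950, 770 and 922.

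Of the 2 INK4 genes described, Cdkn2c (p18) was higher in old cells and Cdkn2d (p19) did not pass the test in any comparison. Cdkn2c was at 327 and 456 in young, 534, 1116 and 563 in AThi cells and 831, 1277 and 1091 in ATlo cells. All 6 old values were above both young ones, and the fractions overlapped because of the AThi library O11. ATlo exceeded young in the authors' deposited table by a log2 fold change of 1.44 (SE 0.36, interval 0.73 to 2.16, adjusted p = 0.0040), a fold of 2.72. This call was lost with edgeR (1.45, adjusted p = 0.17) and when the young library D11 was left out (1.23, DESeq2 adjusted p = 0.18), at values close to the first. AThi over young was 0.91 (SE 0.36, interval 0.20 to 1.63, deposited adjusted p = 0.15) and fell to 0.48 without the AThi library O11 (DESeq2 adjusted p = 0.58). ATlo was the higher fraction in all 3 pairs (-0.64, -0.19 and -0.95, AThi over ATlo), with a deposited log2 fold change of -0.53 (SE 0.32, interval -1.16 to 0.10, adjusted p = 0.38). Without the AThi library O11 this became -0.96 with a DESeq2 adjusted p of 0.018. Without AThi O10, AThi O12 or ATlo O11 it was -0.34, -0.37 and -0.38 (DESeq2 adjusted p = 0.72, 0.65 and 0.71).

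Cdkn2d was at 1499 and 1489 in young, 1490, 1358 and 1731 in AThi cells and 2109, 1394 and 1483 in ATlo cells. The 3 groups overlapped, and the ATlo library O10 alone exceeded 2000. The deposited log2 fold change of AThi over ATlo was -0.12 (SE 0.20, interval -0.52 to 0.27, adjusted p = 0.83). Per kilobase it was the more abundant of the pair and, with 949 in young, 970 in AThi cells and 1056 in ATlo cells, among the highest of all 8 members. The share of Cdkn2c in their summed level per kilobase was 13.3% ± 2.74 (SD, n = 2) in young, 22.0% ± 9.17 (SD, n = 3) in AThi cells and 27.9% ± 8.30 (SD, n = 3) in ATlo cells.

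Of the pocket proteins, Rbl1 was lower and Rbl2 higher in AThi than in ATlo cells, and these were the only 2 of the 8 members called between the old fractions. Over all 17908 genes tested, 7.90% were called in this comparison, 3.47% higher and 4.43% lower, so that 2 of 8 rests on few genes. For 3 members, Cdkn1c, Rbl1 and Rbl2, the groups did not overlap, as for 22.3% of all genes tested. The median log2 difference of the 8 was 0.03, against 0.02 over all genes tested. edgeR called 1.41% of genes and none of the members, of which 4 had an unadjusted p below 0.05 with edgeR.

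Rbl1 encodes p107, the pocket protein that is itself an E2F target and accumulates in dividing cells. It was at 2914 and 4927 in young, 2240, 2106 and 2375 in AThi cells and 3275, 3301 and 3666 in ATlo cells. The AThi values lay below all others, and the 2 young values were far apart, on either side of the ATlo range. The fall in AThi was nearly equal in the pairs, at -0.55, -0.65 and -0.63 (mean -0.61, SD 0.05, n = 3). In the authors' deposited table the log2 fold change was -0.61 (SE 0.19, interval -0.98 to -0.23, adjusted p = 0.025). The call was made under 11 of 19 alternatives. Among the 11 were a refit that repeats the authors' fit and DESeq2 fits that change only a filter or the size factors. It was made too with the pair as a block in DESeq2 (adjusted p = 2.0e-04) and on leaving out the 3 libraries tagged 12 (-0.60). It was not made by edgeR (adjusted p = 0.15, and 0.056 with the pair as a block) or without the AThi library O10 or O11 or any 1 of the ATlo libraries (DESeq2 adjusted p of 0.056 to 0.13), with log2 values of -0.65 to -0.55 over all 19.

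Rbl2 encodes p130, the pocket protein that prevails in resting cells. It was at 7117 and 6731 in young, 7347, 7647 and 7092 in AThi cells and 5446, 6508 and 5067 in ATlo cells. ATlo lay below both other groups without overlap, and AThi overlapped young. The paired differences, AThi over ATlo, were 0.43, 0.23 and 0.49. In the authors' deposited table the log2 fold change was 0.38 (SE 0.13, interval 0.13 to 0.62, adjusted p = 0.039). It was called under 7 of 19 alternatives, over which it ranged from 0.30 to 0.49. Among the 7 were a refit that repeats the authors' fit and DESeq2 fits that change only a filter or the size factors. It was otherwise called with the pair as a block in DESeq2 (0.38, adjusted p = 0.0090) and without ATlo O11 (0.49, DESeq2 adjusted p = 0.0041). It was not called by edgeR (adjusted p = 0.15), with the old libraries alone (DESeq2 adjusted p = 0.069), without the libraries tagged 12 (0.33, DESeq2 adjusted p = 0.36), or without any single library other than ATlo O11. ATlo over young was -0.29 (SE 0.14, interval -0.56 to -0.01, deposited adjusted p = 0.30).

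Rb1, the retinoblastoma gene itself, was at 2054 and 1894 in young, 2986, 2774 and 3178 in AThi cells and 2439, 2560 and 2867 in ATlo cells. Both old fractions lay above young in every library, and the fractions overlapped, although AThi was the higher in each pair by 0.29, 0.12 and 0.15. Rb1 rose in the authors' deposited table in AThi against young by a log2 fold change of 0.59 (SE 0.15, interval 0.30 to 0.88, adjusted p = 0.0026). In ATlo against young it was 0.41 (SE 0.15, interval 0.12 to 0.70, adjusted p = 0.092) and between the fractions 0.18 (SE 0.13, interval -0.07 to 0.44, adjusted p = 0.48). The AThi call was lost with edgeR (adjusted p = 0.090), on leaving out the young library D12 (0.54, DESeq2 adjusted p = 0.15) and without the libraries tagged 12 (0.49, DESeq2 adjusted p = 0.43). The value moved little in these settings, each of which but edgeR leaves 1 young library.

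**Figure D2:**
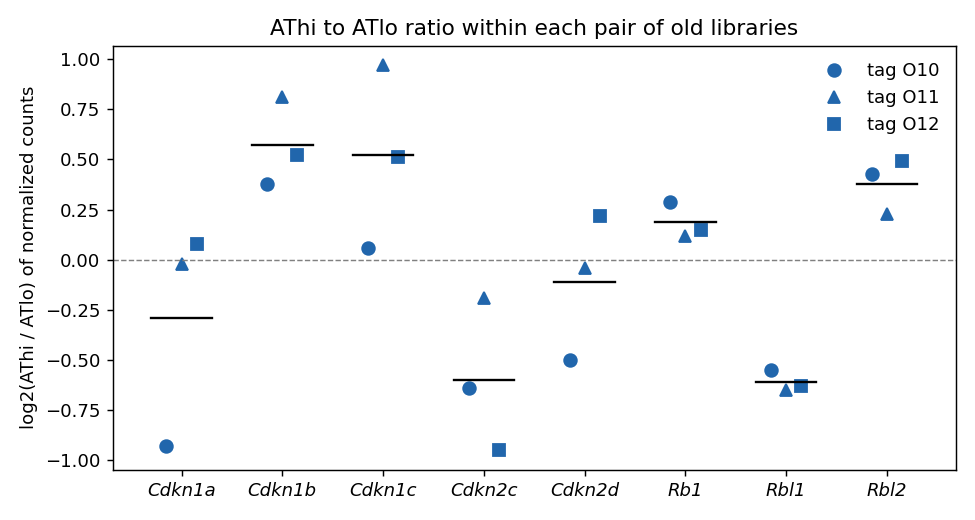
Log2 ratio of the AThi to the ATlo normalized count within each of the 3 pairs (vertical axis) for each of the 8 members. The 3 Rbl1 points lie between -0.65 and -0.55 and the Rbl2 points between 0.23 and 0.49, while the Cdkn1a points run from -0.93 to 0.08.

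Against young cells, AThi differed in 3 members and ATlo in 2. In AThi, Cdkn1a and Rb1 were called higher and Rbl1 lower, where 5.04% of the 19064 genes tested were called, 3.13% higher and 1.91% lower. The fall of Rbl1 was -0.81 on the log2 scale (SE 0.21, interval -1.23 to -0.39, adjusted p = 0.0060 by the authors' deposited table), but its size depended on which young library was used. It was -0.38 without D12 (DESeq2 adjusted p = 0.43), -1.13 without D11 (DESeq2 adjusted p = 2.2e-07) and -0.42 without the libraries tagged 12 (DESeq2 adjusted p = 0.55), each against 1 young library. In ATlo, Cdkn1a and Cdkn2c were called higher and none lower, where 4.34% of the 18678 genes tested were called, 2.37% higher and 1.98% lower. The groups did not overlap for 5 members in AThi against young and for 4 in ATlo against young, as for 28.2% and 31.4% of all genes tested. The median of the members was 0.35 in AThi cells and 0.00 in ATlo against young, and 0.00 and 0.01 over all genes tested. edgeR called Cdkn1a in each comparison and no other member (adjusted p = 0.017 and 0.016), where it called 1.21% and 0.653% of all genes.

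**Figure D3:**
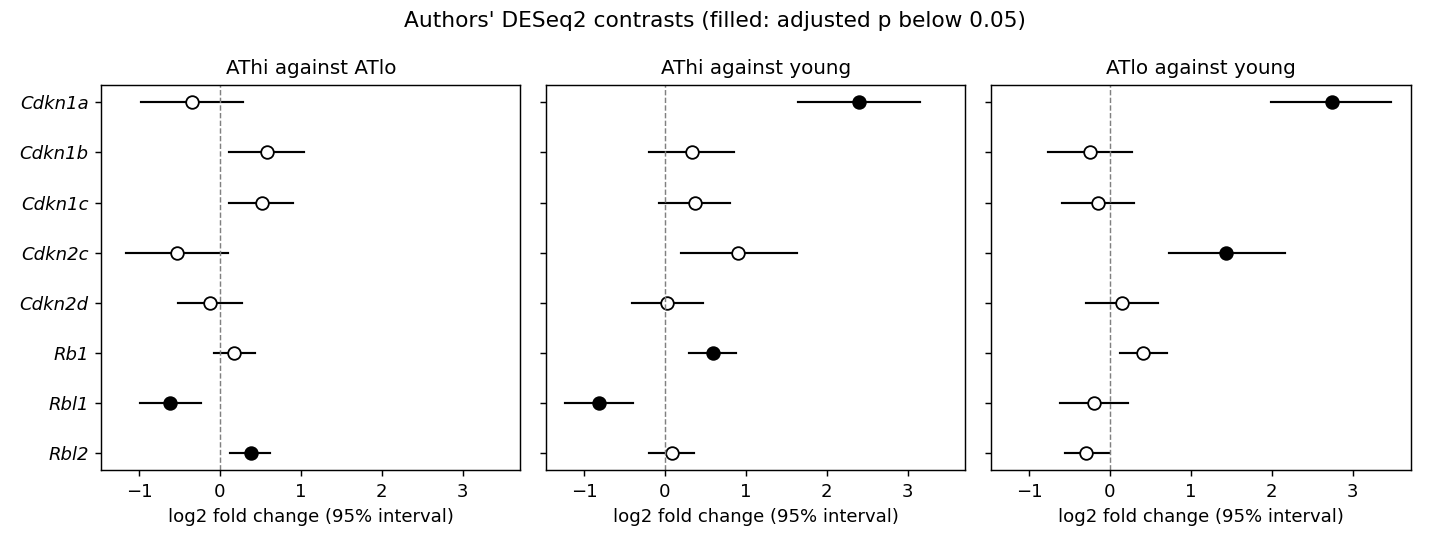
Log2 fold changes of the 8 members with 95% intervals in the authors' 3 deposited comparisons, with filled points at an adjusted p below 0.05. Cdkn1a stands at 2.40 and 2.74 against young, while the 2 filled points between the old fractions are Rbl1 at -0.61 and Rbl2 at 0.38.

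Per kilobase, Rbl2 was the most abundant pocket protein transcript in each group mean, at 916 in young, 974 in AThi cells and 751 in ATlo cells. Rbl1 was at 654, 374 and 570 and Rb1 at 328, 495 and 436, so that Rb1 stood above Rbl1 in AThi cells and below it in the other 2 groups. As a share of the summed pocket protein level per kilobase, Rbl1 was 34.0% ± 9.24 (SD, n = 2) in young, 20.3% ± 1.0 (SD, n = 3) in AThi cells and 32.5% ± 2.41 (SD, n = 3) in ATlo cells. Rbl2 was 52.9% ± 2.55 (SD, n = 3) of the sum in AThi cells and 42.7% ± 4.39 (SD, n = 3) in ATlo cells. The summed level was close in all groups, at 1899 ± 183 (SD, n = 2) in young, 1843 ± 19.4 (SD, n = 3) in AThi cells and 1756 ± 82.5 (SD, n = 3) in ATlo cells.

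Some members share exon sequence with a gene on the opposite strand, and the sources used here do not say whether strand was used in counting. Rb1, on chromosome 14 at 73183673 to 73325822 (GRCm38, minus strand), shares 408 exon bases with Lpar6 and 488 with Rcbtb2. Lpar6, a lysophosphatidic acid receptor gene that lies within Rb1, was itself higher in AThi than in ATlo at a log2 fold change of 0.88 (adjusted p = 8.6e-04 in the authors' deposited table, SE 0.21). In AThi against young, where Rb1 was called at 0.59, Lpar6 was at 0.65 (SE 0.23, deposited adjusted p = 0.081). Rbl2, on chromosome 8 at 91070057 to 91123844 (plus strand), shares 693 exon bases with Aktip and 892 with Gm45464, neither of which was called in any comparison. Cdkn1a shares 273 with AC167363.2 and Cdkn1c 625 with Gm44732, which was not called in any comparison. Rbl1, on chromosome 2 at 157145893 to 157204534 (minus strand), had no such overlap, nor had Cdkn1b, Cdkn2c and Cdkn2d.

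The kinases that the members inhibit were lower in AThi than in ATlo cells in part. Of 10 G1 cyclin and CDK genes, 6 fell and none rose (median log2 difference -0.57, against 0.02 over all genes tested), with 4 falling without the libraries tagged 12, 2 with edgeR and 3 without the ATlo library O11. Ccna2 (cyclin A2, a CDK2 partner in S phase) was at 3402, 2627 and 3252 in AThi cells and 7338, 10189 and 7451 in ATlo cells, a log2 fold change of -1.43 (adjusted p = 5.2e-14 in the authors' deposited table, SE 0.17). Ccne2 (cyclin E2, the CDK2 partner at S-phase entry) was at 547, 650 and 566 in AThi cells and 1042, 1178 and 1149 in ATlo cells (deposited log2 fold change -0.93, adjusted p = 1.4e-05). Cdk4, the kinase that INK4 proteins bind, was at 3563, 4059 and 3729 against 5380, 5599 and 5635 (deposited log2 fold change -0.55, adjusted p = 5.4e-04). The Cdk4 call was lost with edgeR (adjusted p = 0.062, and 0.053 with the pair as a block) and without the libraries tagged 12 (-0.53, DESeq2 adjusted p = 0.058). The AThi and ATlo values of these 3 genes did not overlap, as for 22.3% of all genes tested. They were named for the smallest adjusted p of the list in this comparison, so the lack of overlap adds no support. Of all genes tested, 4.43% were lower in AThi than in ATlo. The CDK-activating kinase genes Cdk7, Ccnh and Mnat1 were not called in any comparison, nor at an unadjusted p below 0.05 with DESeq2 or edgeR.

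The D-type cyclins, the partners of CDK4 and CDK6, differed in direction against young cells. Of all genes tested against young, 1.91% were lower in AThi cells, and 2.37% were higher and 1.98% lower in ATlo cells. Ccnd2 was at 18639 and 17408 in young and at 12016 to 14351 in old libraries, lower in AThi cells and ATlo by log2 fold changes of -0.41 and -0.56 (adjusted p = 0.0032 and 9.5e-06 in the authors' deposited tables). The AThi call of Ccnd2 was lost with edgeR (adjusted p = 0.091), without the young library D11 (-0.36, DESeq2 adjusted p = 0.18) and without the libraries tagged 12 (-0.50, DESeq2 adjusted p = 0.096). Ccnd1 was at 1415 and 1271 in young, 1988, 1547 and 2023 in AThi cells and 2575, 2299 and 2424 in ATlo cells. It was called higher in ATlo against young, at 0.86 (deposited adjusted p = 1.3e-04; edgeR 0.065; 0.79 and DESeq2 adjusted p = 0.14 without the libraries tagged 12). In all, 4 of the 10 genes were lower and none higher in AThi against young (1 without the libraries tagged 12 and 1 with edgeR), and 3 were higher and 1 lower in ATlo against young (none and 1 with edgeR).

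Among the E2F family, some of whose members are held by pocket proteins, 5 of 10 E2F and DP genes fell and none rose in AThi against ATlo (median -0.74; 4 without the libraries tagged 12, 3 with edgeR and 3 without the ATlo library O11). Of all genes tested, 4.43% were lower in this comparison and 1.91% in AThi against young. E2f1, an activating E2F that Rb1 binds, was at 808 and 899 in young, 205, 218 and 292 in AThi cells and 898, 1104 and 1201 in ATlo cells. Its deposited log2 fold change of AThi over ATlo was -2.16 (SE 0.23, adjusted p = 1.3e-17). Tfdp1, the common dimer partner of E2Fs, was at 3178, 2821 and 3145 in AThi cells and 6049, 5429 and 5961 in ATlo cells (deposited log2 fold change -0.93, adjusted p = 7.1e-13). E2f8, an atypical repressor E2F that pocket proteins do not bind, was at 607, 870 and 912 against 1776, 2542 and 1912 (deposited log2 fold change -1.38, adjusted p = 2.1e-07). Against young, 4 of the 10 were lower in AThi (1 without the libraries tagged 12 and 1 with edgeR) and 1, Tfdp1, higher in ATlo (0.51, deposited adjusted p = 0.0047; edgeR 0.13; 0.57 and DESeq2 adjusted p = 0.19 without the libraries tagged 12).

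Of 6 tested subunits and partners of MuvB, with which Rbl1 and Rbl2 form DREAM, 3 fell in AThi against ATlo and none rose. With edgeR 2 fell. Of all genes tested, 4.43% were lower in the deposited comparison. Mybl2, which replaces the pocket proteins on MuvB in S phase, was at 92.2, 128 and 86.8 in AThi cells and 401, 470 and 440 in ATlo cells (deposited log2 fold change -2.09, SE 0.34, adjusted p = 8.6e-08). Foxm1, which joins MuvB at mitotic genes, fell by 1.36 (deposited adjusted p = 8.9e-06) and Lin9, a core subunit, fell by 0.73 (deposited adjusted p = 0.045; edgeR 0.18). The Lin9 call was also lost in several other settings, among them without the libraries tagged 12 (-0.75, DESeq2 adjusted p = 0.25). Of 12 chromatin partners of pocket proteins, Dnmt1 (the maintenance DNA methyltransferase) and Suv39h1 (a histone H3 lysine methyltransferase) fell, with log2 fold changes of -1.12 and -0.89 (deposited adjusted p = 8.6e-08 and 0.014), and none rose, where 4.43% of all genes tested were lower. The Suv39h1 call was lost with edgeR (adjusted p = 0.13), without the libraries tagged 12 (-1.02, DESeq2 adjusted p = 0.068) and without AThi O10 or O11 or ATlo O11 or O12, down to -0.65 (DESeq2 adjusted p = 0.15) without ATlo O11. The other 10, which include the histone deacetylases Hdac1 and Hdac2, were not called.

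The E2F target genes fell almost throughout in AThi cells. Of 30, 26 were lower in AThi than in ATlo and none higher, with a median log2 difference of -1.17, where 4.43% of all genes tested were lower. Without the libraries tagged 12 the count was also 26, and with edgeR it was 20. The list was chosen with earlier results of these data known and also holds Ccne1, Ccne2, E2f1 and Dnmt1 of the other lists, so it is not independent evidence. Rrm1 (a ribonucleotide reductase subunit) was at 4148, 4600 and 4562 in AThi cells and 9991, 10880 and 10490 in ATlo cells (deposited log2 fold change -1.24, SE 0.10, adjusted p = 8.6e-32). Mcm5 (a subunit of the replicative helicase) was at 771, 872 and 1040 against 2916, 3214 and 3210 (deposited log2 fold change -1.80, SE 0.16, adjusted p = 3.2e-27). Ung (uracil DNA glycosylase) was at 228, 290 and 356 against 1546, 1439 and 1328 (deposited log2 fold change -2.30, SE 0.23, adjusted p = 1.8e-20). The 2 fractions did not overlap in any of these genes, as for 22.3% of all genes tested. They were named for the smallest adjusted p of the list in this comparison, so the lack of overlap adds no support. In young libraries their levels lay between the 2 fractions. The shares of all genes tested that were called against young were 1.91% lower in AThi cells and 2.37% higher in ATlo cells. Against young, 21 of the 30 were lower in AThi cells and none higher (18 without the libraries tagged 12, 12 with edgeR), and 1, Tk1 (thymidine kinase), was higher in ATlo (0.63, deposited adjusted p = 0.037; edgeR 0.23; 0.72 and DESeq2 adjusted p = 0.37 without the libraries tagged 12). Beside these counts, 8 of 10 markers of cycling cells were lower in AThi than in ATlo, and the part of the cycling share of cells was not tested.

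**Figure D4:**
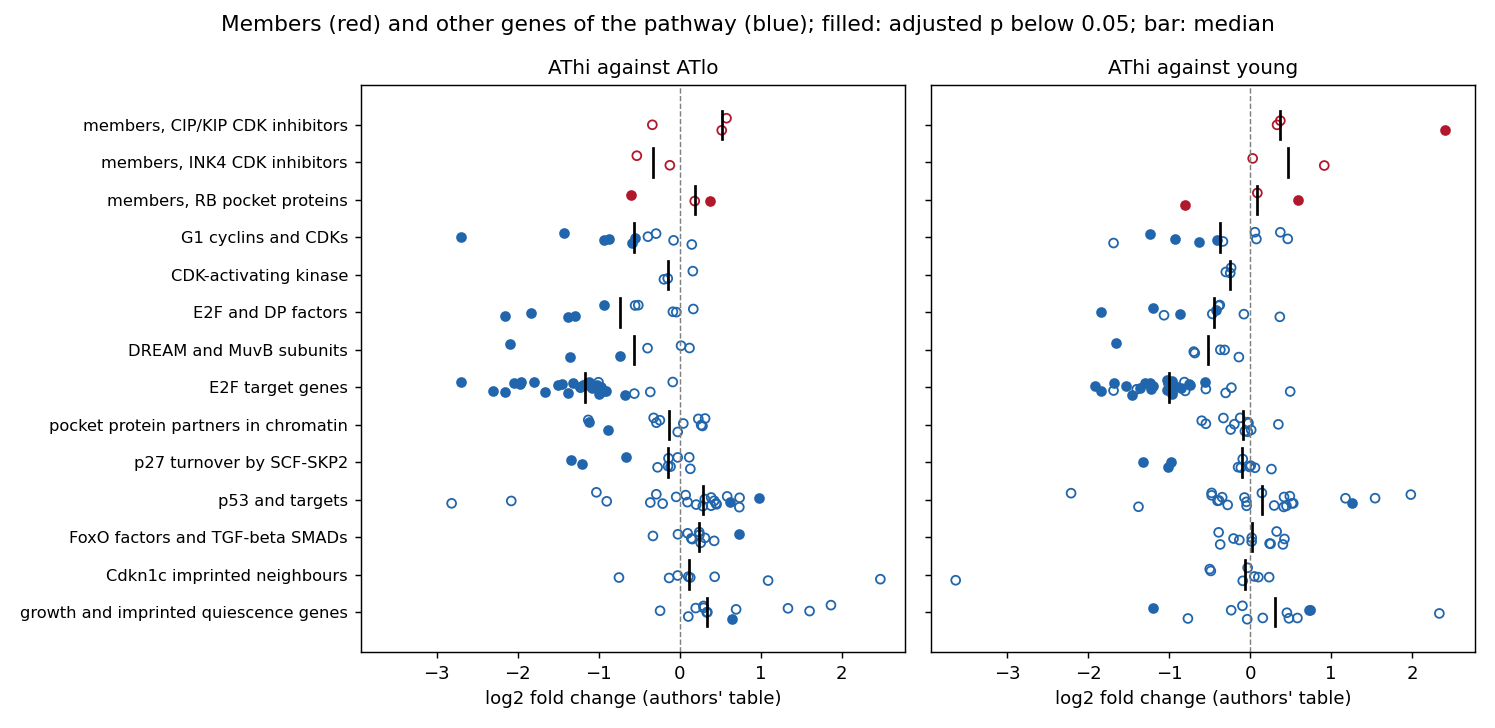
Deposited log2 fold changes (horizontal axes) of AThi over ATlo on the left and of AThi over young on the right for each tested gene, 1 row per list, with members in red, other genes in blue, filled points at an adjusted p below 0.05 and the list median as a bar. The E2F target genes have the lowest median of the lists on each side, with 26 of 30 filled at a median of -1.17 on the left and 21 of 30 filled on the right, while the members lie on both sides of 0.

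The machinery that destroys CIP/KIP proteins, which acts on protein rather than RNA, was lower in AThi than in ATlo in 3 of 10 genes tested (2 with edgeR and 2 without the libraries tagged 12) and higher in none, where 4.43% of all genes tested were lower. Skp2, the F-box protein that recognises p27, was at 2209 and 2010 in young, 846, 1213 and 1077 in AThi cells and 1610, 1547 and 1818 in ATlo cells. AThi lay below both other groups, with deposited log2 fold changes of -0.66 against ATlo (SE 0.18, adjusted p = 0.0056) and -1.01 against young (SE 0.20, adjusted p = 3.9e-05). The groups did not overlap for 22.3% of all genes tested in the first comparison and 28.2% in the second. Skp2 was named for its small adjusted p, so the lack of overlap adds no support. The Skp2 call against ATlo was lost with edgeR (adjusted p = 0.100), without ATlo O12 (-0.59, DESeq2 adjusted p = 0.072) and without the libraries tagged 12 (-0.62, DESeq2 adjusted p = 0.21). Cks1b, the cofactor of Skp2 for p27, was at 685, 955 and 1105 in AThi cells and 1990, 2520 and 2457 in ATlo cells (deposited log2 fold change -1.34, adjusted p = 2.4e-08). Dtl, the substrate receptor through which CUL4 degrades p21, was at 1856, 2001 and 1686 against 4904, 4077 and 3763 (deposited log2 fold change -1.20, adjusted p = 2.3e-13). In AThi against young, 1.91% of all genes tested were lower. The same 3 genes were lower in AThi against young (Cks1b not with edgeR, adjusted p = 0.084, or without the libraries tagged 12, DESeq2 adjusted p = 0.068), and none of the 10 was called in ATlo against young, where 1 had an unadjusted p below 0.05 with DESeq2 and 1 with edgeR.

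Genes known to act on CIP/KIP transcription were called between the old fractions about as often as all genes tested, of which 7.90% were called. Against young, 5.04% of all genes tested were called in AThi cells and 4.34% in ATlo cells. Of 23 tested genes of the p53 list, 2 were higher in AThi than in ATlo and none lower, 1 higher in AThi against young and 1 lower in ATlo against young. edgeR called none of them in these 3 comparisons, with 5, 6 and 3 at an unadjusted p below 0.05. Plk2, a polo-like kinase gene, was at 524 and 1158 in young, 2196, 1698 and 2131 in AThi cells and 1326, 996 and 733 in ATlo cells (AThi over ATlo 0.98, SE 0.30, deposited adjusted p = 0.022). Trp53inp1, a stress-induced gene with a role in autophagy, was at 2311, 2181 and 1935 in AThi cells and 1575, 1481 and 1142 in ATlo cells (0.61, SE 0.17, deposited adjusted p = 0.0066). Of 11 FoxO and TGF-beta pathway genes, Klf6, a zinc finger factor that can activate Cdkn1a, was the one called between the fractions, at 4865, 3552 and 3833 against 2807, 2499 and 2080 (0.73, SE 0.17, deposited adjusted p = 0.0011). Among 12 growth and imprinted genes linked to HSC quiescence, Junb, an AP-1 subunit, was the one called between the fractions, at 1153, 1006 and 1242 against 853, 689 and 632 (0.65, SE 0.20, deposited adjusted p = 0.018). edgeR called neither of these 2 genes (adjusted p = 0.068 and 0.12). Without the libraries tagged 12 the calls of Plk2 (0.74, DESeq2 adjusted p = 0.11), Trp53inp1 (0.56, DESeq2 adjusted p = 0.14) and Junb (0.48, DESeq2 adjusted p = 0.51) were lost, and single libraries left out ended them too. Meg3, a maternally expressed long RNA, was at 199 and 258 in young, 86.4, 165 and 151 in AThi cells and 47.1, 57.2 and 6.22 in ATlo cells, and was called lower in ATlo against young (-2.63, SE 0.77, deposited adjusted p = 0.021; edgeR 0.21; -1.93 and DESeq2 adjusted p = 0.43 without the libraries tagged 12).

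The authors also deposited a table of upstream regulators for AThi against ATlo, in which a positive score predicts that a regulator is active from the direction of its known targets. The scores come from the same comparison as the gene counts and are no independent support. Of 726 regulators listed, 350 had a score, and 62 were predicted activated and 88 inhibited. CDKN1A in the authors' deposited table scored 4.54, RB1 3.96, RBL2 3.65 and RBL1 2.68, ranked 5, 7, 10 and 22 from the most activated, and all 4 were predicted activated. The transcripts did not follow the scores as 1 group: the same table lists log2 ratios of -0.339 for CDKN1A, 0.184 for RB1, 0.376 for RBL2 and -0.608 for RBL1. Cdkn1c was listed with 3 targets and no score. The RBL2 row carried a bias flag, and all 22 of its listed targets were lower in AThi. Of the targets listed for the others, 60 of 62 were lower for CDKN1A, 42 of 46 matched for RB1 and 16 of 18 for RBL1.

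The 4 scores rested on overlapping targets. RB1 and RBL1 shared 16, which is 34.0% of the RB1 targets and 88.9% of the RBL1 targets, and CDKN1A and RB1 shared 26, which is 41.9% and 55.3%. Of 90 targets listed for any of the 4, 7 were listed for all: AURKB, CCNA2, CCNE1, CDK1, E2F1, MYBL2 and TYMS. In the other direction the authors' deposited table scored the E2f group at -4.91 and E2F1 at -3.99, while E2F4, the E2F that p130 binds in resting cells, had a score of 1.71 and no predicted state. No member was itself listed as a target of any regulator. The rule by which genes entered the target lists was not examined, so this absence says nothing about regulation of the members.

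Over the 8 libraries the members did not share 1 pattern. The highest correlations between members (Pearson r of log2 of the normalized count plus 1, which includes the group differences) were 0.77 for Rb1 with Cdkn1a and 0.75 for Cdkn2c with Cdkn1a, and the lowest was -0.68 for Rbl1 with Rb1. Cdkn1b and Cdkn1c had an r of 0.66. Among 11022 genes with a mean of at least 100, those most like Rbl2 were Hbp1 (0.978), Atf7ip (0.975) and Zfp119a (0.974), and those most like Rbl1 were Lsm7 (0.969), Nkrf (0.954) and Slc10a7 (0.953). Hbp1, which encodes an HMG-box transcriptional repressor, was also the gene most like Rbl2 over the 6 old libraries alone, with an r of 0.992. Cdkn1c was most like Lpp (0.980), Dtx3 (0.937) and Sqor (0.936), and Lpp also came first over the old libraries alone (0.990). The 6 old libraries are part of the 8, and each gene was chosen as the highest of 11022. The values of Hbp1 and Lpp over the old libraries are therefore not separate checks. Cdkn1a was most like Prr13 (0.980), Gpx8 (0.976) and Zg16 (0.974), whose r over the old libraries alone was 0.550 to 0.686. Rb1 was most like Atp6v1c1 (0.984), Zfp971 (0.973) and Slamf1 (0.973), the last an HSC surface marker. Cdkn1b was most like Polr3gl, Fggy and Itpkb (0.920 to 0.924), Cdkn2c most like Nr4a2, Ppib and Vamp8 (0.940 to 0.949), and Cdkn2d most like Ehhadh, Srp72 and Cdc26 (0.893 to 0.904). These are descriptions over libraries that share depth, normalization and group, and of the 24 genes only 2 were among the 3 closest over the old libraries alone.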

How the data were processed

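Bulk RNA was sequenced (NuGen Ovation Trio kit, paired-end reads of 50 bases) from 8 HSC libraries. Per the submitters' processing notes, the authors used FastQC, MultiQC, STAR, featureCounts and DESeq2 with GRCm38; the sources used here give neither versions nor settings. The deposited tables hold, for 19909 genes, counts divided by DESeq2 size factors (a signal per library), log2 fold changes with SE, and p-values with Benjamini-Hochberg adjustment from 1 fit of all 8 libraries. The deposited regulator table holds activation scores, log2 ratios and p-values of overlap, and the program behind it is not named in the labels.

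The authors' Wald test was the main test, with genes called at an adjusted p below 0.05. Whole reads were recovered from the size-factor steps: 100% of values were whole within 0.01 read. Refits used DESeq2 1.42.0 and edgeR 4.0.16 (quasi-likelihood, TMM) in R 4.3.3, after a test on simulated data. rRNA genes took 27.1% to 36.1% of reads. Column tags map to groups, not to single samples; D marks young and O old libraries. The labels pair the old fractions, and deviations from the group means correlated at 0.21, 0.16 and 0.37 for equal tags (O10, O11 and O12) and at -0.23 to 0.03 for others, so equal tags were taken as pairs. Levels between genes were compared per kilobase of merged exons (GENCODE M21). The 8 members were named whatever their p; from each of the other lists the text names up to 3 genes with the smallest adjusted p between the old fractions and up to 2 for each comparison with young, and for each member the 3 genes of highest r with a mean of at least 100. Further gene symbols only identify overlapping genes, list members or markers. The members and lists were chosen with earlier results of these data known. The alternatives were other normalizations, filters, tools and fits with the pair as a block, and leaving out libraries. They include a refit of the authors' fit, which made the same calls, and changes of filter or size factors that moved member values by little. A count of alternatives is therefore not a count of separate checks. Intervals are from the authors' SE and the normal distribution. Protein sequences and the promoters of Cdkn1c and Rb1 were not analysed here.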

Additional observations from a re-analysis of the deposited data

How the results depend on the processing

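Under all alternatives run, 383 of 424 results for single members kept their direction and their side of the threshold. The others lost a call (31), gained one (4) or changed sign (6). Most of the 424 results belong to members not called in the main test, and they include the refit, which repeats the authors' fit. With 3 pairs and 2 young libraries, calls near the threshold depended on single libraries, and the causes were not tested. edgeR called 0 members between the old fractions, with or without a filter on low counts or the pair as a replicate block, and 1 in each comparison with young. Between the old fractions 1 member was called without the libraries tagged 12 and 1 with the old libraries alone, and 3 with the replicate block in DESeq2, which added Cdkn1b and changed no other member's call. Without the libraries tagged 12, 1 member was called in AThi against young. Leaving out 1 library at a time gave 0 to 1 called members between the old fractions, 1 to 3 in AThi against young and 1 to 2 in ATlo against young.

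Where a young library was left out, the 1 that remained was assumed to vary as the other groups do. The signs that changed were all of uncalled values. Cdkn2d became 0.09 between the old fractions and -0.05 in ATlo against young without the ATlo library O10, and -0.07 in AThi against young without the AThi library O12 and also without the libraries tagged 12. Rbl1 in ATlo against young became 0.23 without the young library D12 and 0.18 without the libraries tagged 12. Over all single libraries left out, Cdkn2d ranged from -0.23 to 0.09, from -0.07 to 0.11 and from -0.05 to 0.27 in the 3 comparisons in the order AThi against ATlo, AThi against young and ATlo against young, and Rbl1 in the last from -0.52 to 0.23.

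The same alternatives were run on the pathway counts after the data were seen. Lower in AThi against ATlo, leaving out 1 library gave 25 to 28 E2F target genes, 3 to 6 E2F and DP factors and 3 to 6 G1 cyclins and CDKs; edgeR, filtered or not, gave 20, 3 and 2, and with the replicate block 20, 4 and 2. Lower in AThi against young, leaving out 1 library gave 15 to 23, 1 to 3 and 2 to 4; edgeR, filtered or not, gave 12, 1 and 1. In that comparison E2F and DP factors numbered 1, and G1 cyclins and CDKs 1, without the libraries tagged 12, and E2F and DP factors numbered 2 with the 2 groups alone. Of the 24 genes most like a member, 22 stayed with a pseudocount of 10 and 2 with the 6 old libraries only.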
